A study of Rattus norvegicus with 180 samples.

Results

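The epididymis and the testis of the same 3 rats were compared across all microRNAs (miRNAs) on a rat miRNA array. The comparison takes 6 of the 180 arrays of an atlas of 55 organs, 3 of epididymis and 3 of testis, and pairs them by the number of the rat (4, 5 and 6). All rats were male Sprague-Dawley animals aged 10 weeks, and these 3 were perfused with saline to wash blood out of the organs. Each array holds bulk total RNA of 1 organ of 1 rat, so a lower number of cells of a type and less RNA per cell cannot be told apart. Of 717 miRNAs on the array, 175 were well above background in all 3 rats in epididymis, in testis or in both, and were tested. The question was which miRNAs separate the epididymis, a coiled duct lined by epithelium and wrapped in smooth muscle, from the testis, where most cells belong to the germ line.

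miRNAs are short RNAs that pair with messenger RNAs through their seed, the stretch from the second to the eighth base, and lower the output of those messengers. Sperm formed in the seminiferous tubules of the testis pass into the epididymis, where they mature and are stored until ejaculation. The family of miR-34 and miR-449 is known from germ cells from meiosis onward and from cells with motile cilia, the X-linked cluster between Slitrk2 and Fmr1 is known from testis, and the miR-200 family is a hallmark of epithelium. miR-143 and miR-145 mark smooth muscle.

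The mature sequences of the miRNAs that carry the difference are shown from 5′ to 3′ with the seed in capitals. They come from RefSeq on the rat build GRCr8, which held the measured arm for 113 of the 175 tested miRNAs. The first 4 belong to the family of miR-34 and miR-449 and share 1 seed, and they were higher in testis. The next 3 share the seed of the miR-17 family and were also higher in testis. The following 5 lie in the X-linked cluster and have different seeds. Of the last 5, miR-202* was higher in testis and the others were higher in epididymis.
miR-34a: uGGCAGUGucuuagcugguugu
miR-34b: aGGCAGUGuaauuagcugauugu
miR-34c: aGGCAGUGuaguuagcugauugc
miR-449a: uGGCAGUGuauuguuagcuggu
miR-17-5p: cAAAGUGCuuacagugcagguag
miR-20a: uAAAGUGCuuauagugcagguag
miR-93: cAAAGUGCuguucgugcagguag
miR-743b: gAAAGACAccauacugaauaga
miR-883*: uGCUGAGAgaaguagcaguuacu
miR-471*: uGAAAGGUgccauacuaugu
miR-741-3p: aAAGAUGCcacgcuauguagau
miR-547: aUUGGUACuucuuuaagugaga
miR-200c: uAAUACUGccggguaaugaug
miR-141: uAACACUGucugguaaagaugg
miR-205: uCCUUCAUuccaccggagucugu
miR-10a-5p: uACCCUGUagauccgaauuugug
miR-202*: uUCCUAUGcauauacuucu

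miR-34b and miR-34c lie close together on the minus strand, at chr8:60306657-60306679 and chr8:60306133-60306155, within the bounds of the protein-coding gene Hoatz. miR-34a lies at chr5:165815971-165815992 and miR-449a at chr2:46403925-46403946, each on the plus strand within the bounds of a long noncoding RNA gene. miR-141 and miR-200c are neighbours on the minus strand at chr4:159209540-159209561 and chr4:159209969-159209989, and no other annotated gene spans them. The X-linked miRNAs lie on the minus strand, miR-743b at chrX:150444588-150444609 and miR-547 at chrX:151712092-151712113. miR-93 lies at chr12:22156894-22156916 within the bounds of Mcm7, a gene of the replication machinery. miR-10a-5p lies at chr10:81779730-81779752 on the plus strand, miR-205 at chr13:107564588-107564610 and miR-202* at chr1:204184390-204184408, both on the minus strand. The annotation used gives the bounds of genes without their exons. It holds no mature entry for the measured arms of miR-200a, miR-200b and miR-429, so these are named only.

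Levels are given as scaled intensity, the spot signal after the scanner software had subtracted the background, with each array brought to the same 75th percentile of the 37 miRNAs that all 180 arrays detected. The value can fall below 0 where the background was the brighter, and a log2 difference treats everything below 10.83, the typical dimmest signal that can be detected, as 10.83. A miRNA counts as detected on an array when more than 50% of its usable spots stood well above background. The epididymis arrays detected 168 to 183 miRNAs and the testis arrays 146 to 173, while 126 were detected on all 6 arrays and 504 on none. Before scaling, the 75th percentile was 1166 to 1527 on the epididymis arrays and 539.9 to 738 on the testis arrays, so a dim miRNA was harder to detect in testis. The log2 values correlated at 0.986 to 0.996 within an organ and at 0.485 to 0.505 between the organs, across miRNAs, which are not independent replicates. For rats 4 and 5 both organs were hybridised on 1 slide, and for rat 6 on 2.

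The arrays bore out the organ labels. miR-34b, chosen to mark germ cells, gave scaled intensities of 464.6, 538.2 and 415 in epididymis and 13270, 11350 and 15280 in testis of rats 4, 5 and 6. Every testis value lay far above every epididymis value, and miR-34b was detected on all 6 arrays. miR-200b, chosen to mark epithelium, gave 5348, 5176 and 6023 in epididymis and 7.02, 1.14 and 2.70 in testis, where it was not well above background on any array. Smooth muscle miR-143 was detected in both organs, at 10660, 8645 and 9958 in epididymis and 3693, 3471 and 3773 in testis.

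Of the 175 miRNAs tested, 57 (32.6%) were higher in epididymis and 88 (50.3%) were higher in testis at an adjusted p under 0.05 (limma with rat as a block, Benjamini-Hochberg), and 30 were not called. Only 126 of the 175 were detected on all 6 arrays. The rest entered the test through 1 organ, so the filter favoured that direction and both shares partly reflect it. Epididymis took 39.3% of all calls, and 33.0% when only miRNAs detected on every array were kept. All 145 called miRNAs had the same sign in all 3 rats, and so within each slide that held both organs. The difference exceeded 4-fold for 22 miRNAs in epididymis and 35 in testis. The median log2 difference, epididymis minus testis, was -0.39 over all tested miRNAs and the median size was 1.37, so most tested miRNAs differed by over 2-fold. limma gave all miRNAs 1 standard error of 0.19, which makes its p-values very small with only 3 pairs. Their own spreads were not all alike, since the SD over rats reached 2.20. With each miRNA's own spread, an alternative chosen after the data were seen, 52 were higher in epididymis and 82 in testis. The smallest p that flipping the signs of 3 pairs can give is 0.25.

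The balance of the 2 directions depended on the scaling. Scaled to the 75th percentile over all miRNAs, 88 were higher in epididymis and 71 in testis, and the median of all tested moved to 0.25. With the miRNAs detected on all 6 arrays as the base, the split was 81 and 74 with a median of 0.13, and with quantile normalization 72 and 78 with a median of 0.01. With normexp background correction, which here also took the median in place of the processed spot signal and added an offset of 50, it was 37 and 114. Under the 3 other scalings the direction held for all 57 miRNAs called higher in epididymis and for 80 of the 88 called higher in testis, while 8 of the latter turned.

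**Figure D1:**
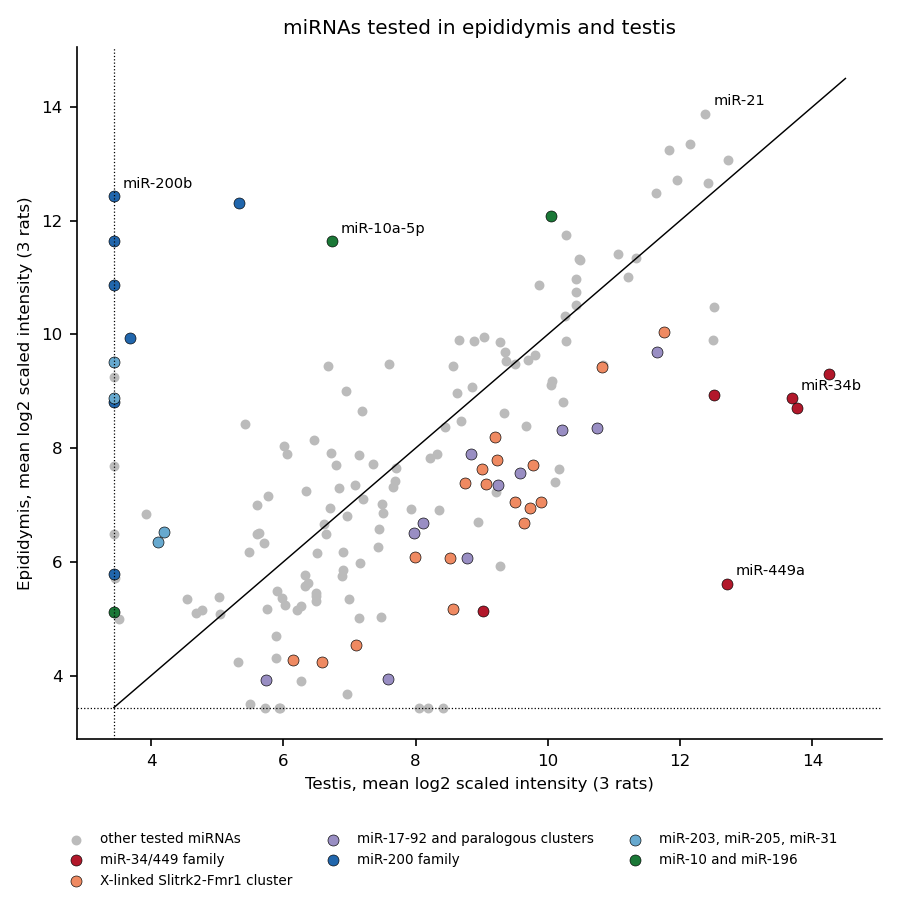
Mean log2 scaled intensity of the 175 tested miRNAs in testis (horizontal axis) and epididymis (vertical axis), each point 1 miRNA averaged over 3 rats, with the line of equality and dotted lines at the floor of 10.83. The miR-200 family lies at or near the testis floor except for the older miR-200c probe set, and the family of miR-34 and miR-449 lies far to the right.

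The family of miR-34 and miR-449 was far higher in testis. All 6 tested members of 11 on the array were called higher there (50.3% of all tested miRNAs), and the direction held under every scaling run. Their log2 differences ran from -7.09 to -3.59 with a median of -4.88, against -0.39 over all tested miRNAs. Of the 6, a pair are older and current probe sets for miR-34b. The mature sequences of miR-34b and miR-34c are close to each other, and how far the probes of such relatives share signal was not tested, here and in the other families. The other 5, among them miR-449c-5p, were not well above background in either organ.

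miR-449a showed the greatest difference of the family. Its scaled intensity was 57.7, 48.5 and 42.1 in epididymis and 6655, 6487 and 6946 in testis, and it was detected on 2 of 3 epididymis arrays. It entered the test through testis alone, so its direction was fixed by the filter and its log2 difference of -7.09 (SD over rats 0.26) is a description. The other 5 tested members were detected on all 6 arrays. miR-34c gave 380.8, 516.8 and 366.9 in epididymis and 12360, 12900 and 16950 in testis, a 33.5-fold difference (log2 difference -5.06, SD 0.45, limma adjusted p 1.94e-86, 0.00937 with its own spread). miR-34b differed 28.1-fold and its other arm, miR-34b*, 14.9-fold, the latter from 49.3, 25.4 and 34.3 in epididymis to 629, 446.2 and 504.3 in testis. miR-34a, which many tissues express and which p53 induces, differed 12.1-fold, from 583, 432 and 460.1 to 5541, 5116 and 7201. No value of the epididymis reached the lowest of the testis for any of these 5 miRNAs.

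Beside the other organs the place of the epididymis depended on the scaling. Across the means of the 55 organs of perfused rats, testis ranked first for all 6 tested members, also with the percentile over all miRNAs and with the authors' normalized values, both chosen for ranks after the data were seen. On the scale used here epididymis ranked second for miR-34b, miR-34b* and miR-34c, ahead of trachea, whose lining carries motile cilia. miR-34c read 220, 262.8 and 235.5 in trachea of rats 4, 5 and 6, below all 3 epididymis values. On the 2 other scales miR-34b* kept its second place, while trachea stood above epididymis for miR-34b and miR-34c, with epididymis ranked 3 or 4. For miR-449a epididymis ranked 5 on all 3 scales, after trachea in the second place. For miR-34a it ranked 14, 21 and 27 of 55.

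The X-linked cluster between Slitrk2 (chrX:150287418-150299832) and Fmr1 (chrX:152284857-152322686) was higher in testis throughout. Of the list of 31 cluster miRNAs on the array, 18 were tested and all 18 were called higher in testis, where 50.3% of all tested miRNAs were, with a median log2 difference of -1.98. Of the 18, 15 were detected on all 3 epididymis arrays, and the other 3 entered the test through testis alone. With each of the 3 other scalings 17 of the 18 were called, all in the same direction. By position in RefSeq, 20 tested miRNAs from 14 hairpins lie in this interval, all higher in testis by log2 differences from -3.39 to -1.004. The differences were smaller than those of the family of miR-34 and miR-449, and RNAs of the cluster were detected in both organs.

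miR-883* showed the largest difference of the cluster, at 34.3, 28.9 and 47.6 in epididymis and 357.9, 346.1 and 434.2 in testis (log2 difference -3.39, SD 0.20, limma adjusted p 4.53e-51, 0.00635 with its own spread). miR-741-3p gave 1170, 796.1 and 1255 in epididymis and 3311, 3260 and 3902 in testis, a log2 difference of -1.72. At the Fmr1 end, miR-547 gave 286.4, 216.6 and 413.2 against 704.5, 502.8 and 584, a log2 difference of -1.004 that was no longer past the threshold with its own spread (adjusted p 0.0719). The older probe set for miR-201 was likewise lost (adjusted p 0.0527 with its own spread). The organs did not overlap for miR-883*, miR-741-3p or miR-547, though the highest epididymis value of miR-547 came near the lowest testis value.

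Testis ranked first of 55 organs for all 20 miRNAs of the interval, and epididymis second for 15. With the percentile over all miRNAs these counts were 18 and 13, and with the authors' values also 18 and 13, of the 19 listed there. In epididymis all 20 were lowest in rat 5, which was also the lowest rat for 114 of the 175 tested miRNAs (65.1%). Among the other male organs, the seminal vesicle had none of the 20 detected on any array, and the rest of the prostate had miR-743b (up to 24.6) and miR-883 (up to 22.7) detected on 1 array each. The ventral prostate had 7 detected, all from the 4 tested hairpins nearest Slitrk2 (miR-743a*, miR-743b, miR-743b*, miR-742, miR-742*, miR-883 and miR-883*), at scaled intensities of 13.7 to 695.1. The 13 miRNAs from the other 10 hairpins lay between -4.31 and 43.7 in ventral prostate with none detected. Testis against epididymis showed no such break, with a median log2 difference of -2.45 for the 7 and -1.91 for the 13. This grouping was made after the values were seen.

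**Figure D2:**
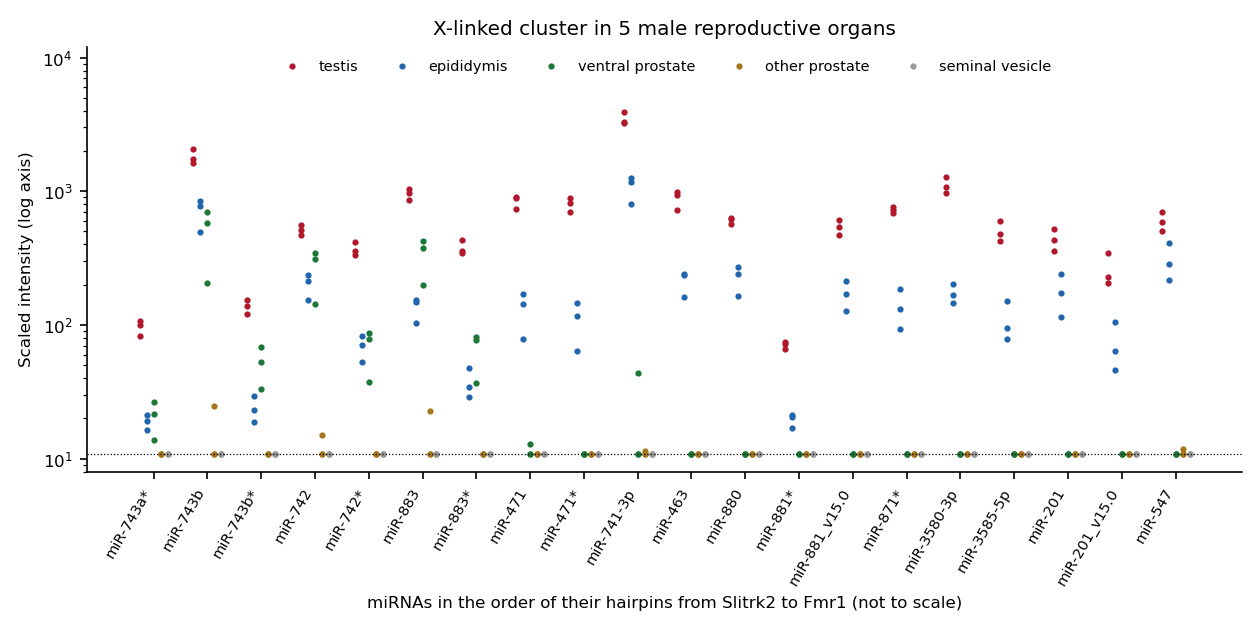
Scaled intensity on a log axis of the 20 tested X-linked miRNAs, in the order of their hairpins from Slitrk2 to Fmr1, in 5 male reproductive organs, with 1 point per rat (3 per organ) and values below the dotted floor of 10.83 drawn on it. Testis is above epididymis for all 20 miRNAs, and ventral prostate rises from the floor mainly for the first 7.

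The other tested miRNAs with a locus on the X chromosome were less one-sided. Of 16 that map elsewhere on X, 11 were higher in testis (50.3% of all tested miRNAs) and 2 in epididymis (32.6%), the latter miR-221 and miR-672. Of 4 with loci on both X and an autosome, 3 were higher in testis and 1 was not called. Of 119 on autosomes, 48 were called in each direction, with a median log2 difference of 0.05. X-linked miR-322 and miR-542-5p, from 1 cluster, were both higher in testis under every scaling, with log2 differences of -1.98 and -1.57. miR-542-5p was detected on 2 of the 3 epididymis arrays and entered the test through testis alone, so its value is a description.

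miRNAs of clusters known from dividing cells were higher in testis. All 11 tested members of the miR-17-92, miR-106a-363 and miR-106b-25 clusters, of 27 on the array, were called higher there under every scaling (50.3% of all tested miRNAs), with a median log2 difference of -1.90. Of the 11, 9 were detected on all epididymis arrays and the other 2 were tested through testis alone. miR-18a was not well above background in epididymis, at 15.7, 15.2 and 15.2, and reached 186.4, 173.3 and 218.6 in testis, at least 12.5-fold higher. miR-19a gave 76, 58.1 and 69.3 in epididymis and 445.9, 381.4 and 489.1 in testis, and miR-92a 347.7, 322.2 and 308.5 against 1533, 1726 and 1884. The 5 tested miRNAs with the seed AAAGUGC were all higher in testis by log2 differences from -1.90 to -0.94. Of the 5 tested miRNAs with the seed AGCAGCA, shared by the miR-15 and miR-16 family that is known to restrain the cell cycle, miR-15b, miR-16 and miR-322 were higher in testis. miR-195 and miR-497 were not called (log2 differences -0.15 and -0.026), and both percentile alternatives called them higher in epididymis. miR-15b gave 989.4, 885.9 and 999.4 in epididymis and 5308, 5727 and 6368 in testis.

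3 further miRNAs stood well above background in testis and not in epididymis. miR-202*, known from the somatic cells of the gonads, gave 7.68, 6.56 and 7.02 in epididymis and 318.7, 317.4 and 398.4 in testis, at least 24.6-fold higher. miR-129-1* was at least 20.8-fold higher in testis (7.25, 8.075 and 6.63 against 329.8, 213.1 and 347.4), and miR-296* at least 18.9-fold (8.85, 9.25 and 8.70 against 279.2, 244.4 and 270.5). Such lower bounds set the mean of the bright organ against the dimmest signal detectable on the arrays of the dim one, or the dim signal itself where that was higher. miR-7a, known from endocrine and neural cells, was detected in both organs at 61.9, 58.8 and 61 in epididymis and 667.4, 555.7 and 633 in testis. In all, 9 miRNAs were detected on all 3 testis arrays and on no epididymis array.

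**Figure D3:**
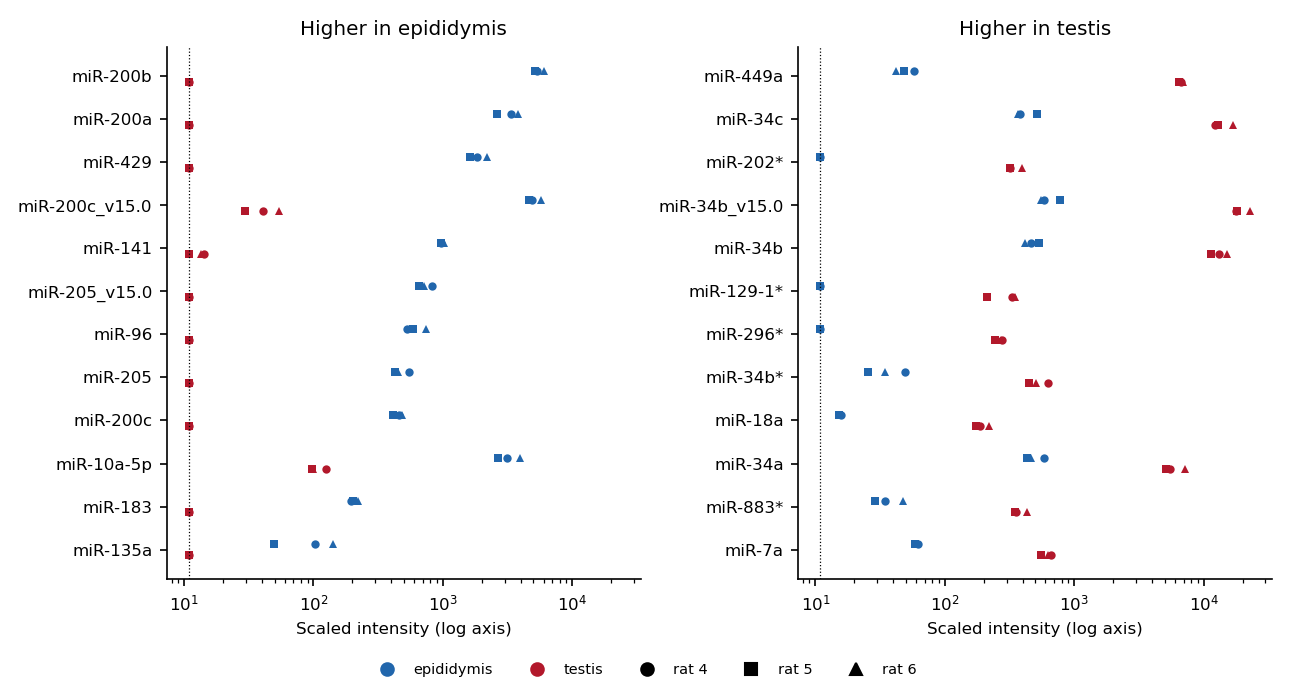
Scaled intensity on a log axis of the 12 miRNAs with the largest difference in each direction, in epididymis (blue) and testis (red) of rats 4, 5 and 6 (circle, square, triangle), with values below the dotted floor of 10.83 drawn on it. The organs do not overlap for any of the 24 miRNAs.

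The miR-200 family gave the largest differences toward epididymis. Of 10 members on the array 7 were tested and called, and all 7 passed the detection filter through epididymis alone, so their direction was fixed by the filter and the values are a description. miR-200b was at least 207.4-fold higher in epididymis (log2 difference 8.99 against the floor). All its testis values lay below that floor, so its SD over rats of 0.12 is the spread of epididymis alone. miR-200a gave 3346, 2638 and 3783 in epididymis and 3.40, -0.82 and 1.32 in testis, at least 121.4-fold higher. miR-429, from the same cluster, gave 1829, 1614 and 2185 in epididymis and was at least 70.2-fold higher. miR-141 gave 966.1, 963.1 and 1015 against 14.4, 7.09 and 13.5, at least 37-fold. The rat-to-rat range within epididymis was small beside these differences.

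The array holds 2 probe sets for miR-200c. The older probe set read 40.5, 29.4 and 54.3 in testis, above background on 1 of 3 arrays, and 4923, 4604 and 5764 in epididymis. The current probe set for miR-200c read below 0 on all 3 testis arrays and 459.1, 412.2 and 485.1 in epididymis, at least 17-fold higher. The dimmest member, miR-200b*, gave 55.5, 52.8 and 57.8 in epididymis and below 0 in testis, and its direction turned with the normexp background.

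miR-203, miR-205 and miR-31 are known from stratified and basal epithelium. The 4 tested of 6 in this list, all called higher in epididymis, also passed the filter through epididymis alone, so their count is no support for a direction. miR-205 gave 549.9, 425.2 and 451 in epididymis and below 0 in testis, at least 17.8-fold higher. miR-203 gave 88.9, 101 and 61.3 against 20.7, 14.6 and 16.8, and miR-31 116.1, 98.1 and 69.5 against 19.9, 18.9 and 16.4, and neither was well above background in testis. The direction of miR-203 and miR-31 turned with the normexp background, and the cause was not tested. miR-96 and miR-183, from a cluster known from sensory cells and epithelium, gave 529.3 to 737 and 196.4 to 220.8 in epididymis and at most 2.09 and 0.44 in testis.

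Smooth muscle and stromal miRNAs were higher in epididymis by smaller folds. Smooth muscle miR-145 gave 281.9, 217.3 and 222.8 in epididymis and 88.2, 57.2 and 58.6 in testis, a 3.59-fold difference, and miR-143 differed 2.67-fold. All 3 tested miRNAs of the mesenchymal list (miR-199a-3p, miR-199a-5p and miR-214) were called higher in epididymis, by log2 differences of 1.24, 1.20 and 0.91. Their direction held under every scaling, and the values in the organs did not overlap. All 5 tested members of the miR-23, miR-24 and miR-27 clusters were also called higher in epididymis (32.6% of all tested miRNAs), with a median log2 difference of 0.92. miR-133b, a muscle miRNA, gave 294.5, 271.6 and 228.1 in epididymis and 74.6, 49.5 and 72.6 in testis, where 1 array detected it. The heart and skeletal muscle marker miR-133a was not detected in either organ, and miR-1 was detected on 2 epididymis arrays and no testis array, at 3.86 to 27.1 over all 6.

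Of the 10 miRNAs on the array from the HOX gene clusters, 3 were tested and all 3 were called higher in epididymis (32.6% of all tested miRNAs), 1 of them entering the test through epididymis alone. miR-10a-5p gave 3104, 2679 and 3925 in epididymis and 124.3, 97.7 and 99.9 in testis, a 29.96-fold difference (log2 difference 4.91, SD 0.35, limma adjusted p 2.72e-83, 0.00772 with its own spread). miR-10b gave 4253, 3660 and 5239 against 1017, 1090 and 1056, a 4.12-fold difference. miR-10a-5p and miR-10b were detected on all 6 arrays with no overlap between the organs. Across the 55 organs, epididymis ranked first for both on this scale. On the 2 other scales miR-10b ranked 1 and 2 and miR-10a-5p ranked 7 and 10.

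Epididymis ranked first of the 55 organs on this scale for 5 more tested miRNAs: let-7c, miR-99a, miR-99a*, miR-210 and miR-672. Of these 5, miR-672 alone kept the first place on both other scales, while miR-210 ranked 3 on both and the rest ranked 7 to 22. miR-672, which lies on X, gave 737.1, 857.6 and 533 in epididymis and 95.3, 101.7 and 111.7 in testis. miR-210, known to rise in low oxygen, gave 231, 337 and 291.8 against 86.8, 85 and 94.2. miR-99a gave 3530, 3406 and 3412 against 1193, 1250 and 1267. Their rank fixes the direction of their difference from testis, which was 1.19 to 2.76 on the log2 scale, though miR-99a*, not well above background in testis, turned with the normexp background. Testis ranked first for 34 tested miRNAs, and for 27 on each of the 2 other scales.

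Families expressed throughout the body were mixed. In the let-7 family 2 of 8 tested miRNAs were called higher in epididymis (32.6% of all tested miRNAs) and none in testis, so the share was no higher than over all miRNAs, with let-7c at a log2 difference of 1.19, and let-7a gave 9408, 7415 and 9177 in epididymis and 6712, 6845 and 6664 in testis (log2 difference 0.35, adjusted p 0.0704). The other scalings called 5 to 8 of the 8. In the miR-30 family 2 of 7 were called higher in testis (50.3% of all tested), while the other scalings called 3 to 5 higher in epididymis. In the miR-29 family 3 of 4 were called higher in epididymis, 1 of which was not detected on any testis array and entered the test through epididymis alone. The miR-99, miR-100 and miR-125 families were divided, with 3 higher in epididymis and 2 in testis, and 1 of the 3 entered the test through epididymis alone. In the miR-181 family 2 were called in each direction, but both epididymis calls entered the test through epididymis alone, so the filter fixed their direction. In the miR-99, miR-100 and miR-125 families, and likewise in the miR-181 family, 1 of the 2 testis calls turned with the scaling. Both percentile alternatives left no testis call in either group, and quantile normalization left 1 in each. miR-21 was higher in epididymis, at 14330, 16000 and 14860 against 4731, 5325 and 5973.

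Both arms of a hairpin were tested in 18 pairs. Of these, 13 had both arms called in the same direction, 7 toward testis and 6 toward epididymis, and none had opposite calls. Over all tested miRNAs, taken singly, 50.3% were higher in testis and 32.6% in epididymis. In 5 of the 6 epididymis pairs and 1 of the 7 testis pairs an arm was not detected on all arrays of the lower organ and entered the test through the higher one, so these counts are partly fixed by the filter. In 3 pairs 1 arm was called and in 2 neither.

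**Figure D4:**
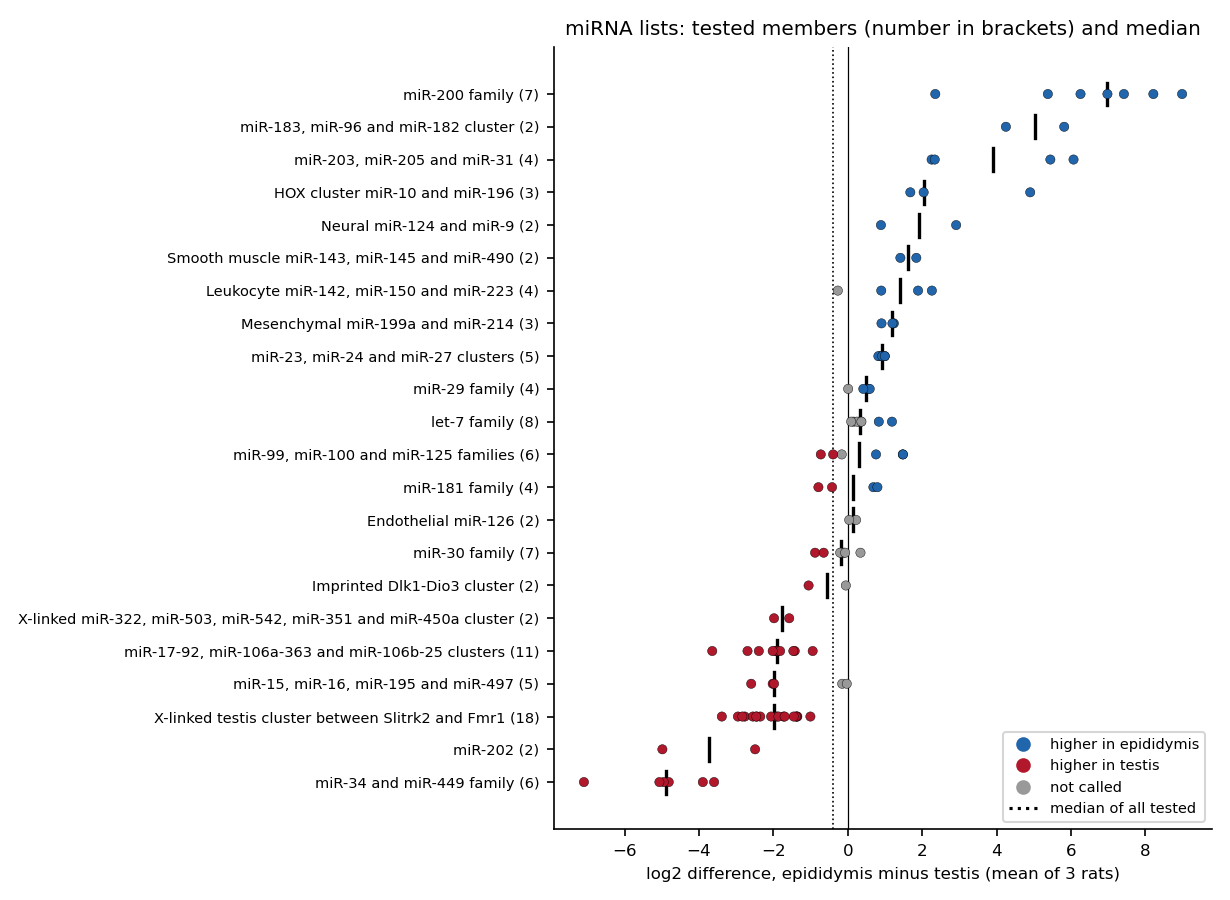
Log2 difference, epididymis minus testis (mean of 3 rats), of the tested members of each miRNA list, with called members in colour, the list median as a bar and the median of all tested miRNAs as a dotted line. The miR-200 family, which passed the filter through epididymis alone, lies furthest right and the family of miR-34 and miR-449 furthest left (median -4.88).

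Markers of other cell types also differed. Of the leukocyte list (miR-142, miR-150 and miR-223), 4 of 6 were tested and 3 were called higher in epididymis, against 32.6% of all tested miRNAs. miR-142-5p and miR-150 passed the detection filter through epididymis alone, and both turned with the normexp background. The fourth, miR-223, was not called (log2 difference -0.27), and turned with the percentile over all miRNAs. The summed level of the list was 904.2 to 1251 in epididymis and 470.3 to 522.8 in testis. miR-142-3p gave 818.4, 559.1 and 804.8 in epididymis and 184.2, 180.4 and 217.8 in testis, and the part of leukocyte RNA in the lists higher in epididymis was not tested. Of the red blood cell list none of 4 was tested. miR-451 read 459.9, 686.7 and 11.3 in testis and 43.3, 16.9 and 28.2 in epididymis, so the testes of rats 4 and 5 held more than that of rat 6, and miR-144 was not detected. The 2 endothelial miR-126 arms were not called, and miR-126 gave 639.9, 458.7 and 542.2 in epididymis and 481.9, 474.1 and 437.7 in testis. This rests on the scaling. Both arms were called higher in epididymis with the percentile over all miRNAs and with quantile normalization. With the percentile over miRNAs detected on all 6 arrays, 1 was. Neural miR-124 and liver miR-122 were not detected in either organ, while miR-9 gave 137.6, 91.6 and 117.8 in epididymis and 12.9, 13.7 and 19.5 in testis, where it was not well above background.

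The 2 organs were then set against the other accessory organs of the male tract, the seminal vesicle, ventral prostate and the rest of the prostate, each from the same 3 rats. Among 186 miRNAs tested over these 15 arrays, 111 (59.7%) were higher and 18 (9.68%) lower in epididymis than in the mean of the 3 accessory organs, and 108 (58.1%) were higher and 49 (26.3%) lower in testis. These splits rest on the scaling: with the 75th percentile over all miRNAs they became 60 and 72 for epididymis and 65 and 98 for testis, with quantile normalization 61 and 71, and 66 and 93, and with the authors' own normalized values 48 and 89, and 63 and 89. The comparisons share the accessory arrays, so their values are given side by side.

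The family of miR-34 and miR-449 was higher than in the accessory organs in both organs. All 6 miRNAs were called in epididymis (59.7% of all tested miRNAs) and in testis (58.1%), with median log2 differences of 3.30 and 9.15. miR-34b read 7.12 to 13.4 in seminal vesicle, 61.2 to 68.2 in ventral prostate and 16.5 to 23.6 in the rest of the prostate, all far below epididymis. The X-linked cluster was also higher in both, with all 18 called and medians of 3.37 and 5.39, though with the percentile over all miRNAs epididymis had 14 higher and 1 lower. The medians kept these directions under every scaling run. Of these miRNAs, 3 of the 6 and 13 of the 18 were detected on all 3 arrays of no accessory organ and passed the filter through testis or epididymis, so both counts are a description. Against ventral prostate alone epididymis was not always the higher. miR-883 read 199.4 to 422.8 in ventral prostate and 103.6 to 154.8 in epididymis, and the means of miR-742, miR-743a*, miR-743b* and miR-883* were also higher in ventral prostate. miR-202* was called higher in testis (log2 difference 4.89) and not in epididymis (-0.10).

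The miR-200 family was lower than in the accessory organs in testis, with a median log2 difference of -7.40 for 7 members, none of them detected on all 3 testis arrays. In epididymis the median was -0.47, with 4 called lower (9.68% of all tested miRNAs) and none higher (59.7%). With the percentile over all miRNAs, however, 7 of 7 were lower (median -1.29), and with quantile normalization 6 were. miR-200b read 4431 to 6047 in seminal vesicle and 10210 to 15430 in ventral prostate beside 5176 to 6023 in epididymis. miR-143 and miR-145 were likewise lower in testis than in the accessory mean, by 1.30 and 1.55 on the log2 scale. They were not called in epididymis (log2 differences 0.11 and 0.29), where the percentile over all miRNAs called both lower. That mean joins unlike organs. The summed level of the smooth muscle list was 21380 in seminal vesicle, 3736 in ventral prostate and 9866 in the rest of the prostate. Testis, at 3529 to 3828, lay near ventral prostate. Epididymis, at 8875 to 10960, lay above ventral prostate and below seminal vesicle. Of the 4 tested miRNAs of the HOX clusters, 3 were higher in epididymis (59.7% of all tested miRNAs) and miR-196b was lower (log2 difference -2.275). miR-10a-5p was higher in epididymis by a log2 difference of 1.41 and lower in testis (log2 difference -3.50), whereas miR-10b was higher in both (2.88 and 0.84). In testis that call of miR-10b rested on the scaling, being lost with quantile normalization and turned to lower with the percentile over all miRNAs. miR-672 and miR-210 were higher in epididymis than in the accessory organs by log2 differences of 3.71 and 4.05. For both, and for miR-10a-5p and miR-10b, epididymis ranked first of the 55 organs on this scale. These organs include the accessory organs, so the rank fixed the direction of these differences in epididymis.

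**Figure D5:**
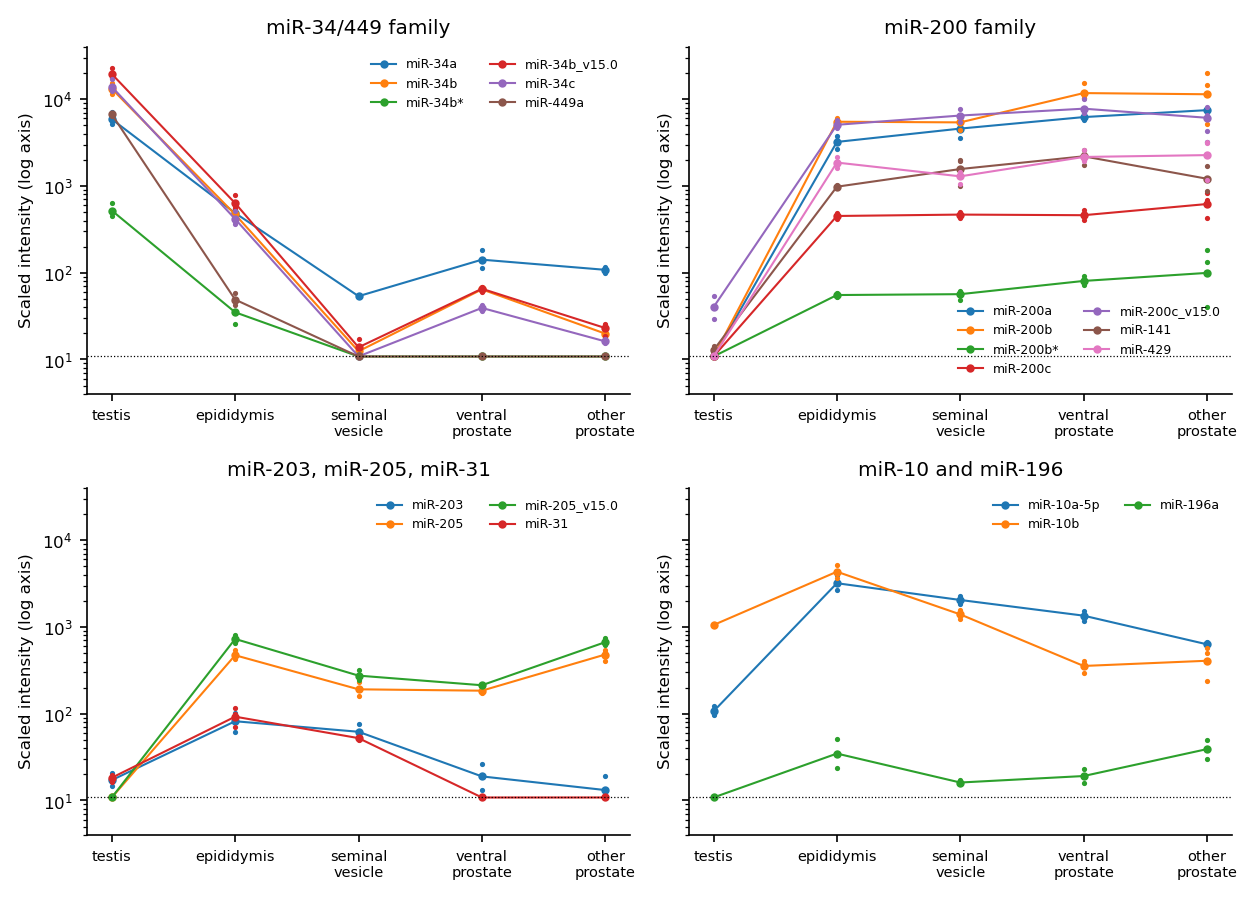
Scaled intensity on a log axis of the tested members of 4 miRNA groups in 5 male reproductive organs, with small points for the 3 rats and larger joined points for their geometric means, and values below the dotted floor of 10.83 drawn on it. The family of miR-34 and miR-449 steps down from testis through epididymis to the accessory organs, while the miR-200 family is high in all organs but testis.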

How the data were processed

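Total RNA of each organ was hybridised to a custom 1-colour Agilent miRNA array with rat probes from 2 miRBase releases, and probes of the older release carry the ending _v15.0. The deposited scanner files give spot intensity, from which Agilent Feature Extraction 10.7.3 (named in the submitters' processing notes) had subtracted the background without scaling between arrays. The authors' own table holds intensity scaled to the 75th percentile, and was used as an alternative.

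Spots marked as outliers were left out, spots of a probe sequence and then probe sequences of a miRNA were averaged, and each array was scaled so that its 75th percentile of the 37 miRNAs that all 180 arrays detected equalled their mean (2118). Values below the floor of 10.83 (the median over arrays of the lowest detected level) were set to it before log2. A miRNA was detected where more than 50% of its usable spots stood well above background, and was tested where detected on all 3 arrays of an organ. No spot of the 6 arrays of epididymis and testis was saturated. limma 3.58.1 in R 4.3.3 (lmFit and eBayes, two-sided, Benjamini-Hochberg) was fitted with rat as a fixed block on the 6 arrays, or on the 15 arrays of the 5 male organs, and was tested on simulated data. Arrays of 1 rat number come from the same animal, which is the source of the pairing. Deviations from the organ means correlated at 0.11, 0.08 and 0.05 between the organs of rats 4, 5 and 6, and at -0.25 to 0.20 between different rats.

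Named miRNAs were the 12 with the largest difference in each direction, the 5 brightest of each organ, markers, and members of miRNA lists detected on all 3 arrays of an organ. The comparison, the members and the lists were chosen with earlier results of these data known. Ranks use the 55 organs of perfused rats. The alternatives were other scalings, floors, backgrounds (normexp used the median spot signal), spot summaries, detection filters, blocks and sample sets, and leaving out each rat. Sequences were matched by name and arm to RefSeq (GRCr8).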

Additional observations from a re-analysis of the deposited data

How the results depend on the processing

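The 57 miRNAs higher in epididymis became 88 with the percentile over all miRNAs, 37 with the normexp background, 35 when only miRNAs detected on every array were kept and 36 with a log2 difference over 1 as well (the last chosen after seeing the data). The 88 higher in testis stayed within 1.5 times under every alternative (70 to 114). Leaving out each rat gave 54 to 65 and 86 to 90. Without the pairing by rat (no replicate block) the counts were 61 and 89, and 110 higher and 18 lower in epididymis and 108 higher and 48 lower in testis than in the accessory organs. The 111 miRNAs higher in epididymis than in the accessory organs became 60 (all miRNAs), 61 (quantile), 48 (authors' table), 55 (normexp) and 42 (detected on every array), and 96 to 120 without a rat. The 18 lower there became 72, 71, 89 and 6 under the same settings without normexp, 28 with the miRNAs detected on all 15 arrays, and 9 to 23 without a rat, 9 being without rat 6. For testis the 108 higher became 65, 66, 63 and 34 (105 to 114 without a rat), and the 49 lower became 98, 93, 89 and 19, 30 with normexp (43 to 46 without a rat). Among named miRNAs, normexp turned miR-203 to a log2 difference of -0.22, miR-31 to -0.13, leukocyte miR-150 to -0.13 and miR-142-5p to -0.41, miR-200b* to -0.31, miR-99a* to -0.66 and miR-135a to -0.049, and the percentile over all miRNAs turned miR-223 to 0.37, miR-195 to 0.49 and miR-497 to 0.61. The percentile of those that all 6 arrays detected turned miR-195 to 0.37 and miR-497 to 0.49, and quantile normalization turned miR-497 to 0.26. The cause was not tested. Detection limits the dim miRNAs, since the lowest detected level was 22.6 to 29.4 on the testis arrays and 13.2 to 15.2 on the epididymis arrays.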

Other observations

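miR-3584-5p, picked out after its values were seen, differed between rats more than any other tested miRNA, with an SD over rats of 2.20 on the log2 scale. Its scaled intensity in epididymis was 1562 in rat 4, 156.6 in rat 5 and 168.1 in rat 6, and in testis it was 34, 59.3 and 38.6, detected on 2 of 3 arrays. It was called higher in epididymis (log2 difference 3.02), but its adjusted p was 0.16 with its own spread. In ventral prostate it read 850.1, 1954 and 4260 in the same rats, and in the rest of the prostate 50.4, 1257 and 7924, so rat 4 had the highest level in epididymis and the lowest in both prostate samples.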
